A study of Drosophila melanogaster with 2 samples.

Results

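The Enhancer of split complex, E(spl)-C, is a run of short neighbouring genes on arm 3R of the fruit fly Drosophila melanogaster. The 10 members described here were taken by name out of 13945 protein-coding genes on the 6 main chromosome arms. They are 7 genes for basic helix-loop-helix (bHLH) proteins, E(spl)mdelta-HLH, E(spl)mgamma-HLH, E(spl)mbeta-HLH, E(spl)m3-HLH, E(spl)m5-HLH, E(spl)m7-HLH and E(spl)m8-HLH, and 3 genes for Bearded-family proteins, E(spl)malpha-BFM, E(spl)m2-BFM and E(spl)m4-BFM. Every ChIP-seq peak was mapped from 5 kb before the first member to 5 kb after the last, which is chr3R:25992621-26046008 on genome build dm6, a window of 53388 bp. The window held 10 of the 3314 reproducible peaks of CG30431, a zinc-finger protein of the ZAD family.

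The measurements came from 1 group of 2 biological replicates and have no second condition. Both were whole embryos of mixed sex, 0 to 24 h of age, of a transgenic line that stably makes CG30431 with green fluorescent protein (GFP) fused to its C-terminus. Sonicated chromatin fragments of 200 to 800 bp were pulled down through the GFP tag with an anti-GFP antibody. The replicates are separate biosamples of the same donor line, so their spread does not include a second insertion. A peak from a whole embryo does not tell in which cells or at which hour the protein was there. Each peak carries the authors' deposited signal value, whose scale is not stated. It ranged from 70.8 to 1800 over the reproducible peaks, with a median of 121. Read counts were not used here, so the depth behind each value is unknown. With 1 group, the results below are counts and values set beside the same measure over the whole genome, with no test.

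E(spl) genes are best known as direct targets of the Notch signal. When Notch is cleaved, its inner fragment joins the DNA-binding protein Suppressor of Hairless, Su(H), and the coactivator Mastermind at Su(H) sites near these genes. The bHLH members then repress proneural genes, with the co-repressor Groucho bound to a short motif at their ends, and so keep the neighbours of a neural precursor from taking its fate. Bearded-family proteins are small antagonists of Neuralized, the ubiquitin ligase that helps the ligand Delta to signal. The gene for Groucho, gro, lies next to the complex, and its starts fell inside the window. All 10 members have 1 annotated start and 1 exon, 6 are on the plus strand and 4 on the minus strand, and neighbouring members are 693 to 7302 bp apart.

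CG30431 peaks were dense in the window as a whole, unevenly spread within it, and stood upstream of a subset of the genes. Reproducible peaks numbered 18.7 per 100 kb in the E(spl) window, against 2.41 per 100 kb on the rest of 3R and 2.48 per 100 kb over all 6 arms. Their median signal was 237 in the window and 116 on the rest of 3R. Without the 5 kb flanks 6 of the 10 peaks remained, and among these peaks 7 and 8 had the same strongest entry in each replicate. A reproducible summit lay within 500 bp of the start of 4 of the 10 members, beside 12.8% of all protein-coding genes (1784 of 13945). These 4 were E(spl)mdelta-HLH, E(spl)m3-HLH, E(spl)m7-HLH and E(spl)m2-BFM, that is, 3 of the 7 bHLH genes and 1 of the 3 Bearded-family genes. The 4 had a summit among the stronger 1657 reproducible peaks too, which holds for 7.65% of coding genes. None of the 10 peaks had its summit inside the transcribed span of a member: 8 lay between genes and 2 in introns of CG43116 and gro. Over all reproducible summits, 39.7% lay between genes and 49.3% in introns. Coding exons held 0.604%, 5' untranslated regions 6.40% and 3' untranslated regions 1.09%. As the members have 1 exon and no intron, a count of none inside them is near these low shares.

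Promoter-side sequence of the 3 bHLH members with a summit is shown here. It covers 300 bases, read along the gene from 480 to 181 bp before the start. The letters come from the RefSeq release of the dm6 assembly, and capitals mark every match to CACTG, read on either strand. The summit falls on base 142 in E(spl)mdelta-HLH, base 56 in E(spl)m3-HLH, and bases 58 and 259 in E(spl)m7-HLH. The stretches are chr3R:25997141-25997440, chr3R:26021343-26021642 and chr3R:26036558-26036857, all on the plus strand, in the order of the lines.
E(spl)mdelta-HLH: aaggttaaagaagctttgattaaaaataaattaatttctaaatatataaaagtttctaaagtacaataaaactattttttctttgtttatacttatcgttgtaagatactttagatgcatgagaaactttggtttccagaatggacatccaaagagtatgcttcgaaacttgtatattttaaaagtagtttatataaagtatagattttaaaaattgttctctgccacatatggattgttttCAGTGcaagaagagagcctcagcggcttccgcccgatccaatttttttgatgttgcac
E(spl)m3-HLH: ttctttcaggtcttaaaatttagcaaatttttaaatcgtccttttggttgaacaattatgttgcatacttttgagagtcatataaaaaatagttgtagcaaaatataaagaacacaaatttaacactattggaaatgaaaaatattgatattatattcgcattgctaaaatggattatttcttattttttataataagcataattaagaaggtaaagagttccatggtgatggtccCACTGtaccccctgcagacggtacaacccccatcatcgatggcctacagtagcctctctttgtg
E(spl)m7-HLH: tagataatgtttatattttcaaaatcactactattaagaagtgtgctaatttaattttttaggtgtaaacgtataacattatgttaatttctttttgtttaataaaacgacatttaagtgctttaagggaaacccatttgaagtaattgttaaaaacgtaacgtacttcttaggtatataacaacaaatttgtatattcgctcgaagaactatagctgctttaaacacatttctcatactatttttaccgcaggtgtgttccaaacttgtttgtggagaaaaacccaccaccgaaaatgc

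Base composition differed between the members with and without a summit. Over these 300 bases the 4 members with a summit held 29.3% to 41.7% GC. The same 300 bases of the 6 members without a summit held 44.0% to 54.0% GC, so the 2 sets of members do not overlap. Their medians were 30.7% with a summit and 50.2% without. Over all protein-coding genes the medians were 38.3% for the 1784 genes with a summit within 500 bp and 38.0% for the 12161 without. This split was noticed after the values were seen, and the part of base composition in the result was not tested.

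**Figure D1:**
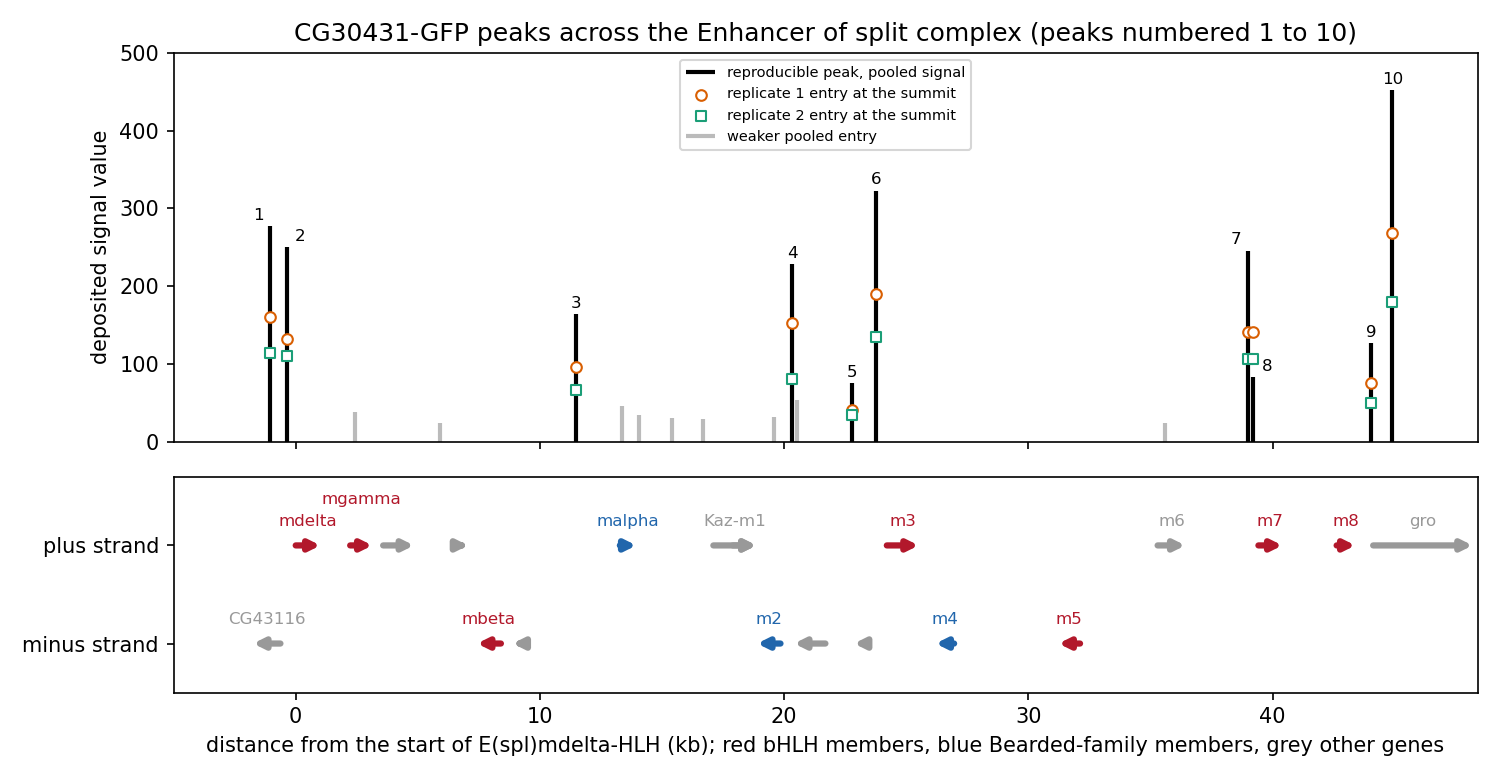
The upper panel plots the deposited signal value (vertical axis) of each CG30431-GFP peak against the distance in kb from the start of E(spl)mdelta-HLH (horizontal axis), with black lines for the 10 reproducible peaks, open symbols for the entries of the replicates at each summit and grey lines for weaker pooled entries. The lower panel draws the genes with their strand; peak 10, inside gro, is the highest at 452, and no reproducible peak stands in the 15217 bp between peaks 6 and 7.

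Among the bHLH genes, E(spl)m3-HLH (FBgn0002609, chr3R:26021823-26023127, plus strand) had the strongest peak at a member's start. Peak 6, chr3R:26021216-26021579, had its summit 425 bp upstream of that start, between genes, with a pooled signal of 323. The same summit is 322 bp upstream of the start of lncRNA:CR43644, which runs the other way. Its signal was 189 in replicate 1 and 134 in replicate 2. Its rank by pooled signal was 278 among the reproducible peaks. A weaker peak lay behind it: peak 5, chr3R:26020232-26020595, 1409 bp upstream of the start, had a pooled signal of 75.2, with 40.5 in replicate 1 and 33.5 in replicate 2. Peak 5 ranked 3106 of 3314 and was the weakest of the window, and in replicate 1 it fell just outside that replicate's strongest 3314 entries.

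E(spl)mdelta-HLH (FBgn0002734, chr3R:25997621-25998633, plus strand), the first gene of the complex, had 2 peaks in front of it. Peak 2, chr3R:25997258-25997394, had its summit 339 bp upstream of the start, with a pooled signal of 250, 132 in replicate 1 and 110 in replicate 2. The gene CG43116 starts on the opposite strand nearby, and the same summit is 286 bp upstream of that start too. Peak 1, chr3R:25996514-25996681, lay 1046 bp upstream of E(spl)mdelta-HLH in the intron of CG43116, with a pooled signal of 277, 160 in replicate 1 and 114 in replicate 2. These 2 peaks ranked 473 and 375, so the farther one was slightly the stronger.

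E(spl)m7-HLH (FBgn0002633, chr3R:26037038-26038019, plus strand) had 2 summits within 500 bp, at 423 and 222 bp upstream of the start. Peak 7, chr3R:26036433-26036796, had a pooled signal of 246, and peak 8, chr3R:26036634-26036997, had 83.1. The strongest entries of the replicates did not separate them. In each replicate the strongest entry over both summits was the same one. It had a signal of 141 and a summit 328 bp upstream in replicate 1. In replicate 2 it had a signal of 106 and a summit 384 bp upstream. Whether a replicate had a weaker further entry there was not examined. For peak 8 the pooled signal was 0.336 times the sum of both replicates, while for the other 9 peaks that quotient was 0.976 to 1.04 (median over all reproducible peaks 1.00). The overlapping calls were therefore not shown to be separate peaks in either replicate, and E(spl)m7-HLH is counted once.

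The other 4 bHLH genes had no reproducible summit within 500 bp. For E(spl)mgamma-HLH (FBgn0002735, chr3R:25999851-26000761, plus strand), the nearest one was peak 2, 2569 bp upstream and on the far side of E(spl)mdelta-HLH. For E(spl)mbeta-HLH (FBgn0002733, chr3R:26005046-26006023, minus strand) it was peak 3, 3090 bp upstream. E(spl)m5-HLH (FBgn0002631, chr3R:26028854-26029735, minus strand) was the farthest from any, with peak 7 at 6880 bp upstream. E(spl)m8-HLH (FBgn0000591, chr3R:26040240-26041008, plus strand), the gene hit by the classical Enhancer of split mutation, had its nearest summit 1412 bp downstream of its start, past its end and next to gro.

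The Bearded-family genes gave 1 gene with a peak and 2 without. E(spl)m2-BFM (FBgn0002592, chr3R:26016514-26017470, minus strand) had peak 4, chr3R:26017760-26018123, whose summit was 472 bp upstream of its start. Its pooled signal was 228, with 153 in replicate 1 and 80.7 in replicate 2, the largest quotient of the replicates among the 10 peaks, 1.90. The summit itself lay 467 bp upstream in replicate 1 and 561 bp upstream in replicate 2, so that in replicate 2 alone E(spl)m2-BFM was past the 500 bp limit. E(spl)malpha-BFM (FBgn0002732, chr3R:26010893-26011568, plus strand) had peak 3, chr3R:26008931-26009294, at 1780 bp upstream, with a pooled signal of 164, 96.2 in replicate 1 and 66.5 in replicate 2. E(spl)m4-BFM (FBgn0002629, chr3R:26023821-26024579, minus strand) had none near: its closest summit was peak 6, 3181 bp downstream of its start and beyond E(spl)m3-HLH.

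The strongest peak of the window belonged to the co-repressor gene gro, which has 4 annotated starts. Peak 10, chr3R:26042388-26042622, had its summit in an intron of gro, 122 bp upstream of one of those starts, and 2279 bp from the start of E(spl)m8-HLH. Its pooled signal was 452, with 269 in replicate 1 and 180 in replicate 2. By pooled signal it was number 132 of 3314. Peak 9, chr3R:26041470-26041833, stood 84 bp upstream of the first gro start, with a pooled signal of 127, 75.7 in replicate 1 and 49.0 in replicate 2. The reproducible peaks next to peak 10 in pooled signal were nearest to lncRNA:CR45695 (452) and CG4496 (452) just above, and to CG6966 (451) and Raf (450) just below.

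Counted over the window, 8 of the 10 summits lay within 500 bp of an annotated start of some gene, against 44.2% of all reproducible summits, and 5 of the 10 within 500 bp of a member's start. The window was drawn around a run of short genes, and how often any position in it lies that near a start was not counted. Peaks 7 and 8, with the same strongest entry in each replicate, both count among the 8 and among the 5. These 5 were measured from the member's start, and lay 222 to 472 bp upstream, with a median of 423 bp upstream, and 0 of 5 were within 200 bp. Over all 1466 reproducible summits within 500 bp of a start, the median was 117 bp upstream and 65.3% were within 200 bp, measured from the nearest start of any gene. Measured that way, peak 2 lay 286 bp and peak 6 322 bp upstream, so that still none of the 5 was within 200 bp. With a limit of 200 bp the count of members was 0 of 10, beside 8.27% of all coding genes. At 1000 bp it was again the same 4 of 10 members, beside 15.1%, and at 2000 bp it was 6 of 10, with E(spl)malpha-BFM and E(spl)m8-HLH added, beside 19.3%. Counting any overlap of the peak with the 500 bp also gave 4 members, beside 13.8%, and so did the 5'-most start of each gene alone, beside 11.0%.

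**Figure D2:**
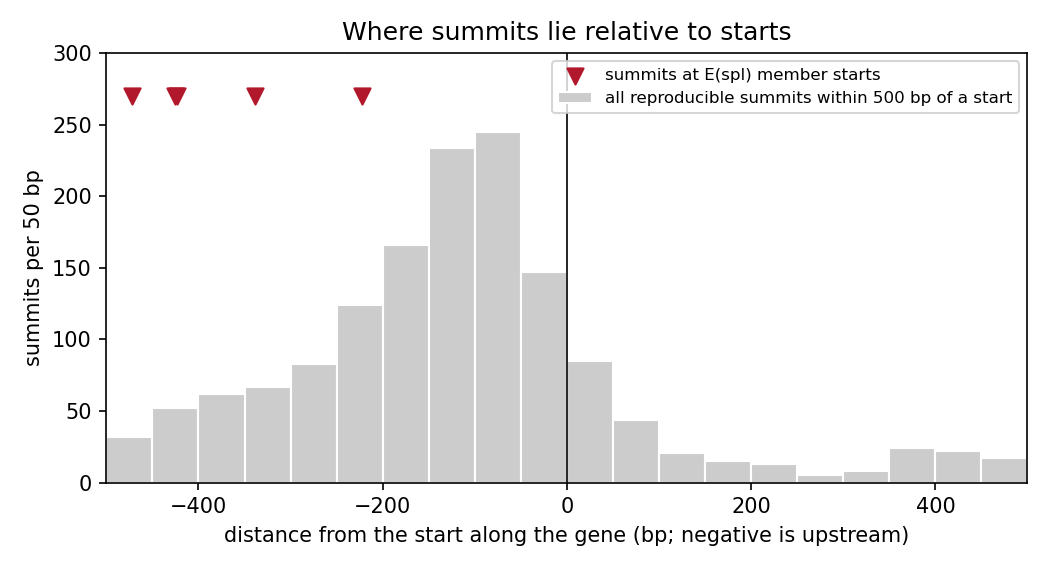
Grey bars count all reproducible CG30431-GFP summits per 50 bp (vertical axis) by their signed distance in bp from the nearest annotated start (horizontal axis, negative is upstream), and red triangles place the 5 summits at E(spl) member starts by their distance from the member's start, at an arbitrary height. The triangles stand between 472 and 222 bp upstream, outside the highest bars, which lie within 200 bp upstream; 2 of the triangles, at 425 and 423 bp, overlap.

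The peaks were unevenly spread between the genes. Of the 9 stretches between neighbouring members, 3 held a reproducible summit and 6 did not. The stretch of 4352 bp between E(spl)m2-BFM and E(spl)m3-HLH (these genes are transcribed away from each other) held 3 summits. Peaks 6 and 7 are 15217 bp apart, the widest interval of the window, while the median spacing of neighbouring peaks was 2472 bp in the window and 15406 bp over all arms. That interval spans E(spl)m3-HLH, E(spl)m4-BFM, E(spl)m5-HLH and E(spl)m6-BFM, a further Bearded-family gene that is no member here. Away from its ends it held 1 entry in the pooled list of 30000, 1 in replicate 1 and 0 in replicate 2.

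All 10 peaks had an entry over the summit in each replicate, beside 98.6% of all reproducible peaks, and 9 of the 10 were among the strongest 3314 entries of both, beside 78.7%, with peaks 7 and 8 resting on the same entries. Signal in replicate 1 was 1.20 to 1.90 times that in replicate 2, with a median quotient of 1.41, against a median of 1.34 over all reproducible peaks. All 10 lay between 0.811 and 2.36, the 5th and 95th percentiles over all reproducible peaks. The replicate lists may differ in depth, so the quotient cannot be read as a difference in binding.

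**Figure D3:**
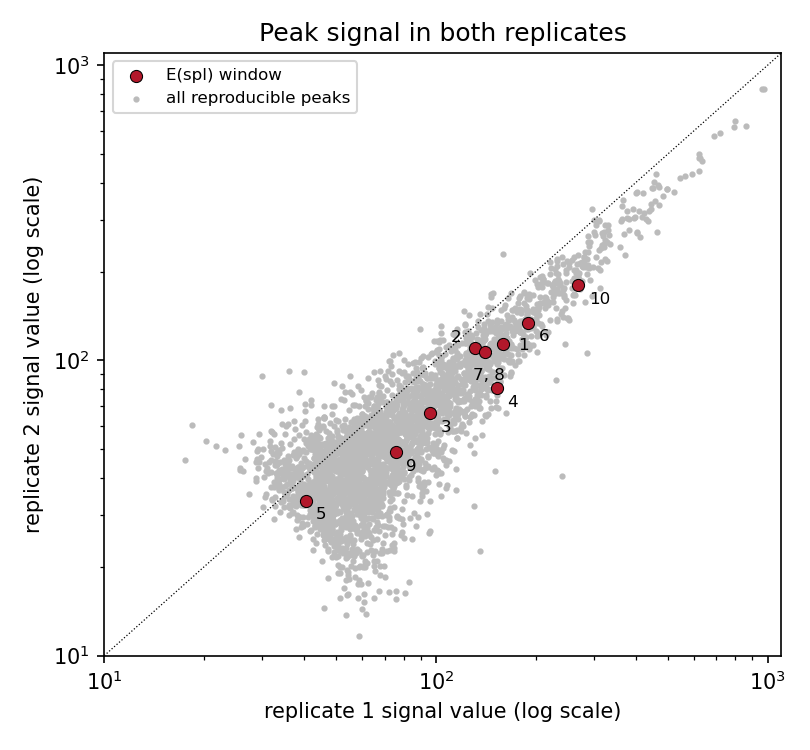
Each point is a reproducible peak, placed by its signal value in replicate 1 (horizontal axis, log scale) and replicate 2 (vertical axis, log scale), with the peaks of the E(spl) window in red and numbered, and all others in grey. The red points lie below the dotted line of equal values, inside the grey cloud, from peak 5 (40.5 and 33.5) to peak 10 (269 and 180); peaks 7 and 8 share 1 point.

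Weaker entries of the pooled list did not crowd the complex. That list was the input to the reproducibility step and holds background entries by construction. Below the reproducible set the window held 9 entries, or 16.9 per 100 kb, against 21.3 per 100 kb on the rest of 3R and 19.9 over all arms. Their signals were 23.6 to 53.0, with a median of 31.1, beside 28.6 for all weaker entries. Of these 9, 3 lay inside members, in the coding part of the single exon. How often weaker entries lie in coding exons over all arms was not counted. The entry in E(spl)mgamma-HLH, 194 bp past the start, had a pooled signal of 38.0, with 33.6 in replicate 1 and none in replicate 2. The entry in E(spl)malpha-BFM, 89 bp past the start, had 45.3, with 23.3 in replicate 1 and 15.8 in replicate 2. The entry in E(spl)m2-BFM, 254 bp past the start, had 31.1, with 21.3 in replicate 2 and none in replicate 1. In the authors' peak calling the deposited −log10 q-values of these entries were 0.418, 0.794 and 0.201, in that order. For the reproducible peaks of the window they were 2.51 to 3.57.

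Of the other weaker entries, the strongest, at 53.0, overlapped peak 4 and lay 680 bp upstream of E(spl)m2-BFM in an exon of lncRNA:CR43643. A second entry by E(spl)malpha-BFM stood 799 bp past its start, just beyond the gene's end, with 34.7. Another lay 416 bp upstream of Kaz-m1, which codes for a Kazal-type protease inhibitor, with 29.5, and 1 lay 295 bp into E(spl)m6-BFM with 24.0. The remaining entries, at 23.6 and 30.0, lay between genes, 2490 bp downstream of the start of E(spl)mbeta-HLH and 2119 bp downstream of that of E(spl)malpha-BFM. With all 30000 pooled entries counted, 6 of the 10 members had a summit within 500 bp, beside 36.0% of coding genes, the added ones being E(spl)mgamma-HLH and E(spl)malpha-BFM. As the pooled list holds background, an entry in it need not be a binding site. The pooled count was 2 of 10 within 200 bp, beside 21.5%, and 6 of 10 within 1000 bp, beside 48.7%. For weaker entries alone the count was 3 of 10, beside 26.1%. E(spl)mbeta-HLH, E(spl)m4-BFM, E(spl)m5-HLH and E(spl)m8-HLH had no entry of the pooled list within 500 bp, which does not show that the protein was absent there.

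Short sequence words that are more frequent at CG30431 peaks than at coding promoters were searched on both strands in the 201 bp centred on each summit. CACTG was present at 6 of the 10 peaks (peaks 1, 3, 5, 7, 8 and 9), beside 51.0% of all reproducible peaks and 32.9% of coding promoters in a window of the same length. The 8-base words CACTGTGC, CACAGTGG, CACTGAGA and TACACTGA all hold CACTG as written or on the other strand. Each was present at 4.19% to 5.82% of all reproducible peaks and 0.535% to 1.19% of coding promoters. At least 1 of them was present at 0 of the 10 peaks, beside 14.3% of all reproducible peaks. With 150 bp on each side, 1 of the 10 held any of the 4, beside 19.1% of all peaks. With only 10 peaks, counts of 0 and 1 are near these shares and say nothing particular of the window. Peaks 6 and 10, the strongest of the window, held neither CACTG nor an 8-base word within 100 bp of the summit.

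The window of peak 10 is shown because it is the strongest site and the one at the gene for Groucho, and that of peak 5 because it is the only one of the 10 with a Su(H) word. Both are 201 bases of the plus strand of dm6, chr3R:26042419-26042619 for peak 10 and chr3R:26020314-26020514 for peak 5, with the summit on the middle base. Capitals mark CACTG and TGTGAGAA, which overlap in peak 5 at its left side, and peak 10 has none.
Peak 10: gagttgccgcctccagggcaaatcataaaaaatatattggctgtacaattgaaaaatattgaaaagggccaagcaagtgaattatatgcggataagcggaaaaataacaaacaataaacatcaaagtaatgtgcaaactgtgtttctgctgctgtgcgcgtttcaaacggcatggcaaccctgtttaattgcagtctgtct
Peak 5: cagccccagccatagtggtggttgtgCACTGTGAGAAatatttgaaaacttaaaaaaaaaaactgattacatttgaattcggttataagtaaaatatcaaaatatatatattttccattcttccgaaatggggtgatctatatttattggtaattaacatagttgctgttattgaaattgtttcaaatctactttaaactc

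Words bound by Su(H), the factor through which Notch acts on these genes, were looked for in the same way. The core TGGGAA was present at 0 of the 10 peaks, beside 10.2% of all reproducible peaks and 11.2% of coding promoters. With only 10 peaks, a count of 0 is near these shares. The full words CGTGGGAA, TGTGGGAA, CGTGAGAA and TGTGAGAA, the first pair of which hold the core, were present at 1 of 10 peaks (peak 5), beside 2.08% of all reproducible peaks. GC content at the 10 summits was 21.4% to 42.8%, with a median of 31.1%, beside 35.3% for all reproducible peaks.

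Su(H) words were next counted upstream of the members' starts. In the 500 bp upstream of the start, 0 of the 4 members with a summit had one of the 4 full words, whereas 6 of the 6 members without a summit had at least 1. Over all protein-coding genes such a word was present in 8.58% of those with a summit and 6.32% of those without. The shorter core TGGGAA was present in the same 500 bp of 8 of the 10 members, beside 25.8% of coding starts. Members with a summit were among them, so the split is one of the full words only. The 4 members with a summit have the full words farther out. Their nearest one was 1316 bp upstream in E(spl)mdelta-HLH, 644 bp in E(spl)m7-HLH and 965 bp in E(spl)m2-BFM, with the value of E(spl)m3-HLH left out. In each of these 4 genes the summit lay between the start and the nearest full Su(H) word. That order follows from the counts above, since each has a summit and no full word within 500 bp upstream, and is no further result.

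In the 6 members without a summit the nearest Su(H) word stood close to the start. It was 269 bp upstream in E(spl)mgamma-HLH, 292 bp in E(spl)mbeta-HLH, 146 bp in E(spl)m5-HLH, 199 bp in E(spl)m8-HLH, 340 bp in E(spl)malpha-BFM and 83 bp in E(spl)m4-BFM. The split between the sets depends on the length searched. With 250 bp upstream, 0 of 4 members with a summit and 3 of 6 without had a word, beside 4.37% and 3.32% of all coding genes with and without a summit. With 1500 bp all 4 and all 6 had one, beside 19.4% and 16.6%. The windows were chosen after the values were seen, the genes share 1 locus and are not replicates, and base composition moves with the same split, so the numbers describe these 10 genes only.

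Some members had Su(H) words as a pair on opposite strands, an arrangement known for Notch targets. The pairs shown here were picked because their first bases lie 25 bp apart, so the shared spacing is no result. How often such pairs stand upstream of other genes was not counted. The pairs are shown as 39 bases read along the gene, with the Su(H) words in capitals, to set their place beside that of the peaks above. They lie at chr3R:25999554-25999592 for E(spl)mgamma-HLH, chr3R:26036366-26036404 for E(spl)m7-HLH and chr3R:26040013-26040051 for E(spl)m8-HLH, all on the plus strand, and at chr3R:26024855-26024893 on the minus strand for E(spl)m4-BFM.
E(spl)m7-HLH: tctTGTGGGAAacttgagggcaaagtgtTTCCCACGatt
E(spl)mgamma-HLH: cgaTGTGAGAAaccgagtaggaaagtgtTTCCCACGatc
E(spl)m8-HLH: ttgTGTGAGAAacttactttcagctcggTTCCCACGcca
E(spl)m4-BFM: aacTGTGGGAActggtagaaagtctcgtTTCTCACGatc

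The pair lies 669 to 644 bp upstream in E(spl)m7-HLH, beyond peak 7. In the 3 members shown that have no summit the pair is near the start, at 294 to 269 bp upstream in E(spl)mgamma-HLH, 224 to 199 bp in E(spl)m8-HLH and 311 to 286 bp in E(spl)m4-BFM. E(spl)mdelta-HLH had a like pair 23 bp apart at 1339 to 1316 bp upstream, and E(spl)m5-HLH one 30 bp apart at 899 to 869 bp upstream. In E(spl)malpha-BFM the closest words, at 635 and 625 bp upstream, were on the same strand. A match to these letters is a description of the sequence and does not show that Su(H) was bound.

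**Figure D4:**
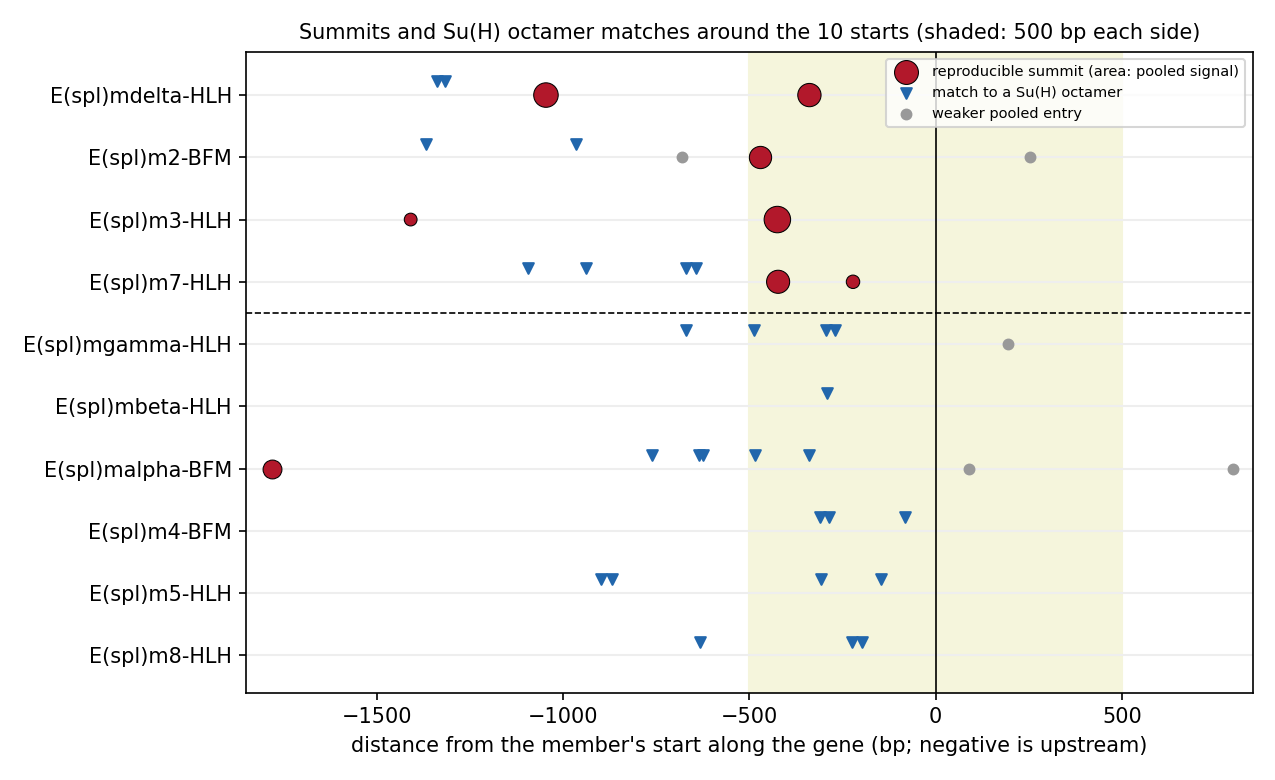
For each of the 10 members (rows), red circles give reproducible CG30431-GFP summits with an area set by the pooled signal, blue triangles matches to a Su(H) word (not drawn for E(spl)m3-HLH) and grey points weaker pooled entries, against the distance in bp from the member's start along the gene (horizontal axis, negative is upstream). Above the dashed line are the 4 members with a summit within 500 bp, whose nearest Su(H) words lie 644 to 1316 bp upstream, and below it the 6 without, whose nearest words lie 83 to 340 bp upstream.

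Genes that act with the E(spl) members in Notch signalling had peaks in part. Of 18 Notch pathway genes, 5 had a reproducible summit within 500 bp of a start, beside 12.8% of coding genes. The strongest of these were at gro (452) and at numb, which codes for an inhibitor of Notch, with a pooled signal of 419, 242 in replicate 1 and 176 in replicate 2. At aph-1, a subunit of the gamma-secretase that cleaves Notch, it was 211, with 96.4 in replicate 1 and 105 in replicate 2. At mam, the gene for Mastermind, it was 92.5, with 56.3 in replicate 1 and 23.9 in replicate 2. At neur, the gene for Neuralized, it was 75.3, with 46.4 in replicate 1 and no entry over the summit in replicate 2. The other 13, among them the genes for Notch, Delta, Serrate and Su(H), had none.

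Relatives of the members were counted in the same way, beside the same 12.8% of coding genes. Of 4 genes of the hairy family, hry, dpn, Hey and Sidpn, which also code for bHLH repressors, 0 had a reproducible summit within 500 bp, and the nearest ones were 5093 to 20609 bp away. Of 5 further Bearded-family genes, Brd, BobA, Tom, Ocho and E(spl)m6-BFM (the last of which lies within the complex), 0 had one. With so few genes, counts of 0 are near that share and say nothing particular of these families. A single peak on 3L with a pooled signal of 98.0 lay 624 bp upstream of Brd and was also the nearest to Tom, at 2699 bp downstream of its start, and to Ocho, at 2805 bp upstream.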

How the data were processed

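The 10 genes, the gene lists, the motifs and the limits were chosen with earlier results of these data known. Samples were grouped by their source label. The deposited peak lists were used on dm6 only. Per the deposited readme, the authors called peaks in each replicate against a control alignment and on both replicates pooled (30000 entries in each list), and kept the reproducible set by the irreproducible discovery rate. The pooled list holds background entries besides peaks. Which aligner, peak caller and threshold were used is not given in the sources used here. Every entry has a deposited signal value and a deposited −log10 q-value; signal described, ranked or filtered peaks within a list, and values of separate lists were set side by side without rescaling. The 3314 reproducible peaks are the strongest entries of the pooled list. No read counts were used, so depth and the precision of each value are unknown.

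Gene models were Ensembl release 115 without transposable elements. A summit counted for a gene within 500 bp of any of that gene's starts, and the genes together had 23998 distinct starts. A replicate's value was its strongest entry holding the summit. Motifs were matched exactly, on both strands, in 201 bp around summits and upstream of starts, on the RefSeq release of the same assembly. Named genes were the 10 members, other genes with a start in the window, list genes with a summit within 500 bp, and the nearest genes of the 2 peaks on either side of the strongest window peak in signal. Other list genes named have no such summit and were added after their values were seen. Some sequences upstream of E(spl)m2-BFM and E(spl)m3-HLH are not reported here. The counting steps were tested on simulated data. Python 3.11.15, numpy 2.4.6, pandas 2.3.3 and matplotlib 3.10.9 were used.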

Additional observations from a re-analysis of the deposited data

How the results depend on the processing

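The count of 4 members with a reproducible summit within 500 bp was 0 at 200 bp, where the count of 6 members over the whole pooled list was 2 (beside 21.5% of coding genes). The 4 held at 1000 bp, with any overlap of the peak, with the 5'-most start alone and in the stronger 1657 peaks. Built from the strongest 3314 entries of a single replicate, the member count was 3 without replicate 1, where E(spl)m2-BFM is lost, beside 12.8% of coding genes. It was 4 without replicate 2, beside 12.6%. Built the same way, the window held 9 entries with either replicate left out, which need not be the same sites. In replicate 1 peak 5 was not among the strongest 3314, and peaks 7 and 8 had the same strongest entry in each replicate. With no flanks the window held 6 peaks in place of 10, since peaks 1, 2, 9 and 10 lie outside the outer members. Flanks of 10 kb gave 10, and the stronger 1657 peaks gave 8. CACTG was found at 3 peaks with 50 bp on each side (24.1% of all peaks) and at 8 with 150 bp (63.8%), against 6. The Su(H) core stayed at 0 of 10 in all 3 windows, beside 5.64%, 10.2% and 15.1% of all peaks from the shortest window to the longest. Searches chosen after seeing the data gave Su(H) words in 0 of 4 members with a summit for 250 bp upstream, 2 for 1000 bp and 4 for 1500 bp, and in 3 of 6 members without a summit for 250 bp and 6 for the longer windows. Over all coding genes with a summit the shares were 4.37%, 14.3% and 19.4% for 250, 1000 and 1500 bp. For coding genes without a summit they were 3.32%, 11.8% and 16.6%. No paired analysis was possible because there is 1 group. Depth is unknown, the signal has no stated scale, and untagged embryos were not analysed here.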
